A study of Mus musculus with 8 samples.

Results

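Early antibody-secreting cell (ASC) genes are turned on as an activated B cell begins to make antibody, and 8 of them were followed here in 8 RNA-seq libraries: Prdm1, Xbp1, Ell2, Jchain, Mzb1, Sdc1, Tnfrsf17 and Slamf7. They were taken by gene symbol from the deposited count table, and all 8 were among its 24259 genes. The libraries held NP+IgDlowB220+ pre-GC B cells, that is, B cells that bind the hapten NP and are on the way to a germinal center (GC), sorted from lymph nodes of C57BL/6 mice at day 3 of a response to NP on the carrier ovalbumin (NP-OVA). All recipients were CD45.1 Sap-/- mice, in which the lack of the adaptor SAP keeps host T cells from supporting GCs, and all were given OT-II T cells, whose receptor recognises ovalbumin, and then NP-OVA with LPS in alum under the skin. In the HET group (4 libraries) the transferred T cells were CD4-Cre x Bcl6 fl/+, so that 1 copy of Bcl6 could be deleted in them. In the WT group (4 libraries) they were CD4-Cre alone. Cre was driven by the Cd4 promoter in the donor T cells. The sequenced B cells came from the recipients and carried no Bcl6 deletion, so no targeted gene was available to check the group names. The age and sex of the animals are not given in the sources used here.

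Recipients of a group were pooled before sorting, and each library held about 200 cells from that pool. The p-values therefore measure only the spread between sorted repeats of 1 pool, and a difference between groups cannot be told apart from one between pools. Total counts ran from 6652390 to 12559200 per library, with HET replicate 1 the deepest, and 3 counts, the limit that a count of 0 allows, corresponded to 0.241 to 0.455 CPM. CPM stands here for counts scaled to the size of the library (counts per 1000000, after the TMM correction of library sizes). B cell markers were detected throughout: none of 8 B cell genes, among them Cd79a, Cd79b and Ms4a1, was at 0 in any library. The T cell genes Cd8a and Trbc2 were not at 0 in any library either, so detection does not measure purity. HET replicate 1 stood apart for several of the genes described here, and fold changes that turned sign or moved by over 1.5 times when it was left out are given with and without it. In bulk libraries of this kind, fewer cells of a type and less RNA per cell cannot be told apart.

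When a B cell turns into a plasmablast, the repressor BLIMP-1, made from Prdm1, shuts down genes of the mature B cell, and the transcription factor XBP1, once its RNA is spliced in the unfolded protein response, expands the secretory pathway. ELL2, an elongation factor, favours the secreted form of the immunoglobulin heavy chain message. The J chain joins IgM or IgA monomers into polymers, and MZB1 is a chaperone of the endoplasmic reticulum that helps antibody assembly and secretion. On the surface, syndecan-1 (CD138, from Sdc1) is the classical plasma cell marker, BCMA (from Tnfrsf17) receives the survival factors BAFF and APRIL, and SLAMF7 is a receptor of the SLAM family found on plasma cells and other lymphocytes. The order of the results follows these roles: transcription and elongation factors, then products of the secretory pathway, then surface proteins. Gene counts do not separate spliced from unspliced Xbp1, nor the secreted from the membrane form of the heavy chain.

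The 3 genes whose levels differed most between repeats were Jchain, Prdm1 and Tnfrsf17. Their promoter windows are shown for that reason, as the 250 bases before the RefSeq start on GRCm38.p6, written 5′ to 3′ on the strand of the gene. Capitals mark exact matches on either strand to an E-box (CANNTG, the motif of basic helix-loop-helix factors) and, in Tnfrsf17 only, to an ISRE-like motif, a pair of GAAA boxes 2 bases apart read on either strand.
Jchain, chr5:88527898-88528147, minus strand: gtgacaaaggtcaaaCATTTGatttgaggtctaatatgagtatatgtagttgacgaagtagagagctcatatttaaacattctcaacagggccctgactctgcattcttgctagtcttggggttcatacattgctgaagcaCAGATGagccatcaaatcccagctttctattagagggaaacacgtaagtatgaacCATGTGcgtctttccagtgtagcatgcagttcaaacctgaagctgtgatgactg
Prdm1, chr10:44458749-44458998, minus strand: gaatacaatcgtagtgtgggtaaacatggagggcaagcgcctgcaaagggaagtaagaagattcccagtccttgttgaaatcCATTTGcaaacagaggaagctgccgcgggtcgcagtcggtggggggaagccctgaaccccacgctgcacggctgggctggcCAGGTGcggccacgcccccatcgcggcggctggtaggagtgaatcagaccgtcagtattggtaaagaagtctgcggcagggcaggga
Tnfrsf17, chr16:11313559-11313808, plus strand: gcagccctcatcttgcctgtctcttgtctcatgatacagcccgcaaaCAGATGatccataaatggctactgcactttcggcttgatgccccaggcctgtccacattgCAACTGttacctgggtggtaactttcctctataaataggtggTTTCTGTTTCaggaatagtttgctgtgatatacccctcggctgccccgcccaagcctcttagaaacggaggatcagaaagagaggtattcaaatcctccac

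The Jchain window held 3 E-boxes, the Prdm1 window 2 and the Tnfrsf17 window 2. None of the 3 windows overlapped an annotated exon, and the Prdm1 window lay inside the gene, between exons of its longer transcripts. A window was given for 7 of the 8 genes in the RefSeq table, and 6 of those 7 held an E-box, as did 66.2% of 32851 promoter windows of the same length, so the motif does not set these genes apart. The ISRE-like motif was in 1 of 7 (Tnfrsf17) and in 2.98% of all windows. The octamer ATGCAAAT, an ETS-IRF composite motif and the core of the unfolded protein response element (TGACGTGG) were in none of the 7, and in 1.6%, 2.3% and 0.563% of all windows. These are matches of letters and show no binding.

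Of the transcription and elongation factors, Prdm1 was the scarcest. Prdm1 (ENSMUSG00000038151.13, a protein-coding gene at chr10:44437177-44528501, minus strand, GRCm38, with up to 8 exons in a transcript) was at 10.2, 1.81, 0.150 and 1.67 CPM in HET replicates 1 to 4, from 127, 14, 1 and 11 counts. In WT replicates 1 to 4 it was at 0.475, 3.15, 1.89 and 10.9 CPM, from 5, 31, 15 and 104 counts. One library of each group, HET replicate 1 and WT replicate 4, was thus far above the other 3, and the counting intervals of these 2 libraries overlapped (8.51 to 12.1 and 8.87 to 13.2 CPM, exact Poisson, 95%, for counting error only). The groups overlapped throughout, with means of 3.46 ± 4.56 CPM in HET and 4.09 ± 4.64 CPM in WT (SD, n = 4 each). The log2 fold change of HET over WT was -0.21 with a standard error of 1.0 (95% interval -2.37 to 1.94, adjusted p = 0.978 by edgeR's quasi-likelihood test). Its sign was set by single libraries: leaving out HET replicate 1 gave -1.74, and leaving out WT replicate 4 gave 0.93.

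Xbp1 (ENSMUSG00000020484.18, chr11:5520659-5525893, plus strand) was the most abundant of the 8 genes per length of transcript. It was at 297, 148, 164 and 313 CPM in HET replicates 1 to 4 and at 139, 121, 155 and 263 CPM in WT replicates 1 to 4. HET replicates 1 and 4 and WT replicate 4 were high, and the other 5 libraries lay between 121 and 164 CPM whatever their group. The means were 230 ± 86.7 CPM in HET and 170 ± 63.9 CPM in WT (SD, n = 4 each), a log2 fold change of 0.44 with a standard error of 0.33 (95% interval -0.32 to 1.20, edgeR adjusted p = 0.835). With single libraries left out it was between 0.26 (without HET replicate 4) and 0.74 (without WT replicate 4).

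Ell2 (ENSMUSG00000001542.7, chr13:75706757-75772364, plus strand, with an antisense gene, 1700037F03Rik, on the other strand) was at 41.8, 11.8, 15.9 and 29.0 CPM in HET replicates 1 to 4. In WT replicates 1 to 4 it was at 26.2, 8.23, 19.7 and 28.4 CPM. The highest and lowest library differed by 3.55 times within HET and by 3.45 times within WT, while the group means were 24.6 ± 13.6 and 20.6 ± 9.06 CPM (SD, n = 4 each). The log2 fold change was 0.26 with a standard error of 0.42 (edgeR adjusted p = 0.934), and it was -0.13 without HET replicate 1.

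Of the secretory pathway products, Jchain showed the widest spread of the 8 genes. Jchain (ENSMUSG00000067149.6, chr5:88519809-88527891, minus strand, up to 4 exons) was at 1576, 25.1, 10.5 and 97.1 CPM in HET replicates 1 to 4, from 19603, 194, 70 and 640 counts. In WT replicates 1 to 4 it was at 41.6, 0.813, 0.505 and 94.8 CPM, from 438, 8, 4 and 908 counts. HET replicate 1 held 16.2 times as much as the next library and 35.6 times the mean of the other 3 HET libraries, 44.2 ± 46.3 CPM (SD, n = 3). Even so, the WT libraries spanned 188 times from lowest to highest, more than the 150 times of HET, so the spread was not that of 1 library alone. The lowest WT libraries had more than 3 counts, so Jchain was detected in all 8.

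The mean Jchain level was 427 ± 767 CPM in HET and 34.4 ± 44.6 CPM in WT (SD, n = 4 each), with SDs of 180% and 130% of the means. The log2 fold change was 3.63 with a standard error of 2.15 (95% interval -1.60 to 8.86, unadjusted p = 0.141 and adjusted p = 0.793 by edgeR), and DESeq2 gave no p for it. Without HET replicate 1 the fold change was 0.36. The medians, 61.1 CPM in HET and 21.2 CPM in WT, were closer than the means. The difference between the groups was within the spread of the repeats.

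Mzb1 (ENSMUSG00000024353.5, chr18:35647267-35649367, minus strand, in a stretch shared with a same-strand gene, SPATA24) was much steadier. It was at 58.5, 24.2, 26.1 and 36.5 CPM in HET replicates 1 to 4 and at 28.3, 21.3, 27.1 and 26.0 CPM in WT replicates 1 to 4. HET replicates 1 and 4 were above every WT library and HET replicates 2 and 3 were within the WT range. The means were 36.3 ± 15.8 CPM in HET and 25.7 ± 3.06 CPM in WT (SD, n = 4 each). With a log2 fold change of 0.50 and a standard error of 0.28, Mzb1 had the lowest p of the 7 tested members (95% interval -0.09 to 1.1, unadjusted p = 0.0889, adjusted p = 0.740 by edgeR), and the change was 0.18 without HET replicate 1. How reads in the stretch shared with SPATA24 were assigned is not given in the sources used here.

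Among the surface proteins, Sdc1 had nearly the same mean in both groups. Sdc1 (ENSMUSG00000020592.14, chr12:8771323-8793715, plus strand) was at 33.5, 24.5, 30.1 and 21.7 CPM in HET replicates 1 to 4 and at 31.1, 40.3, 17.0 and 23.8 CPM in WT replicates 1 to 4. Its highest and its lowest library were both WT, replicate 2 and replicate 3, and HET replicate 1 came second. The group means were 27.5 ± 5.35 and 28.1 ± 9.99 CPM (SD, n = 4 each), with a log2 fold change of -0.03, a standard error of 0.27 and a 95% interval of -0.62 to 0.56 (edgeR adjusted p = 0.987). Without HET replicate 1 the fold change was -0.14.

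Tnfrsf17 (ENSMUSG00000022496.5, chr16:11313812-11320074, plus strand, 3 exons) was counted in 1 library of each group only. HET replicate 1 had 51 counts (4.10 CPM), WT replicate 1 had 55 counts (5.23 CPM), and the other 6 libraries had 0, which allows up to 0.305 to 0.455 CPM. The gene did not pass the filter on low counts and was not tested. In a fit with no filter its log2 fold change was -0.30 (edgeR adjusted p = 0.973), and DESeq2 gave no p for it. WT replicate 1, where Tnfrsf17 was highest, held only 5 counts of Prdm1, so the libraries high in one were not always high in the other.

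Slamf7 (ENSMUSG00000038179.13, chr1:171632403-171653035, minus strand, with an antisense gene, Gm37787, on the other strand) had the lowest spread between repeats of the 7 tested genes by edgeR's estimate. It was at 119, 64.4, 93.2 and 81.1 CPM in HET replicates 1 to 4 and at 76.6, 73.2, 101 and 69.5 CPM in WT replicates 1 to 4. HET replicate 1 was again highest, but WT replicate 3 came next, and HET replicate 2 was the lowest of all. The means were 89.4 ± 22.9 CPM in HET and 80.0 ± 14.0 CPM in WT (SD, n = 4 each), a log2 fold change of 0.16 with a standard error of 0.19 (95% interval -0.24 to 0.56, edgeR adjusted p = 0.896), which was -0.0028 without HET replicate 1. As SMART-Seq2 reads carry no strand, reads of Slamf7 or Ell2 and of their antisense genes cannot be told apart where they overlap.

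**Figure D1:**
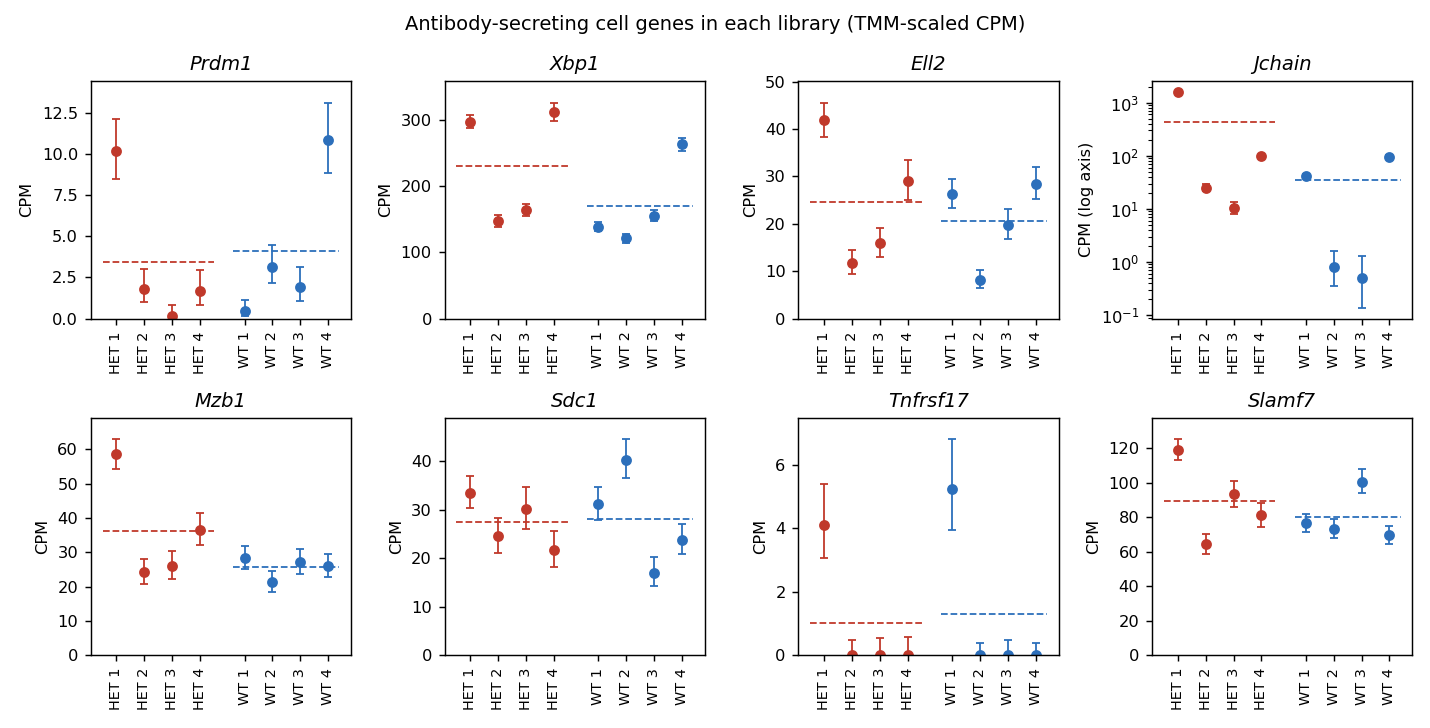
CPM of each of the 8 genes (vertical axes, from 0 except for Jchain, which has a log axis) in the 4 HET libraries (red) and 4 WT libraries (blue). Points are libraries with exact Poisson 95% intervals (counting error only) and dashed lines are group means; Jchain runs from 0.505 to 1576 CPM, and for none of the 8 genes do the groups separate.

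None of the 7 tested genes passed an adjusted p of 0.05 by edgeR, where 0.0235% of all 12744 genes tested did (3 genes, all lower in HET). None was under an unadjusted p of 0.05 either, against 7.22% of all genes, and for none did the 4 HET and 4 WT libraries fail to overlap, against 4.61% of all genes. With single libraries left out, the unadjusted edgeR p was under 0.05 for Xbp1 without WT replicate 4 (0.0181) and for Mzb1 without HET replicate 2 (0.0336) or 3 (0.0459), and the adjusted p was 0.732, 0.774 and 0.796. DESeq2 called none of the 6 genes to which it gave a p, against 0.687% of the 13834 genes with an adjusted p. Of the 7, 5 were higher in HET and 2 (Prdm1 and Sdc1) lower (median log2 fold change 0.26), beside 6356 higher and 6388 lower of all genes with a median of -0.001. Without HET replicate 1, 3 of the 7 were higher and the median was -0.003.

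Like the p-values, the 95% intervals cover only the spread between sorted repeats of 1 pool per group, not that between animals or pools. Within that limit they say what size of change these libraries could have missed. For Slamf7 and Sdc1 the 95% interval stayed within -0.62 and 0.56 on the log2 scale. For Xbp1, Ell2 and Mzb1 the upper ends were 1.20, 1.16 and 1.1, so a rise of 1 log2 unit was not outside them. For Prdm1 and Jchain the intervals were so wide (-2.37 to 1.94 and -1.60 to 8.86) that they held both falls and rises of more than 1 log2 unit.

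**Figure D2:**
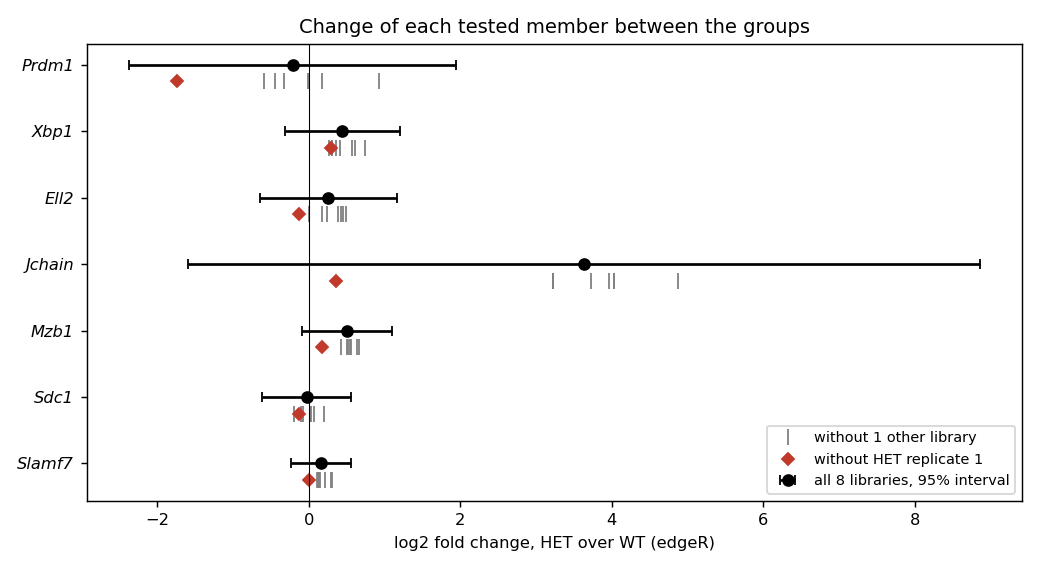
Log2 fold change of HET over WT from edgeR (horizontal axis) for the 7 tested genes: black points with 95% intervals use all 8 libraries, grey marks leave out 1 other library, and red diamonds leave out HET replicate 1. All 7 intervals include 0, and leaving out HET replicate 1 moves Jchain from 3.63 to 0.36 and Prdm1 from -0.21 to -1.74.

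The same genes differed in how far repeats of 1 pool varied. The biological coefficient of variation, edgeR's estimate of the relative spread between repeats beyond counting error, was 1.72 for Jchain, which was above 99.7% of all genes tested, and 0.961 for Prdm1, above 96.4%. The median gene had 0.313. Ell2 (0.423) and Xbp1 (0.327) were above that median, and Sdc1 (0.288), Mzb1 (0.288) and Slamf7 (0.20) were below it. The median and the shares are over genes of all levels, and scarce genes mostly had larger estimates than abundant ones. Genes near the level of Xbp1 (average log2 CPM 7.646), for example Dock2 (7.664) and Celf2 (7.659), had 0.159 and 0.145, below the 0.327 of Xbp1. Jchain had its spread of 1.72 at a mean TPM that was the second highest of the 8 genes, while Prdm1 had the lowest mean TPM.

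**Figure D3:**
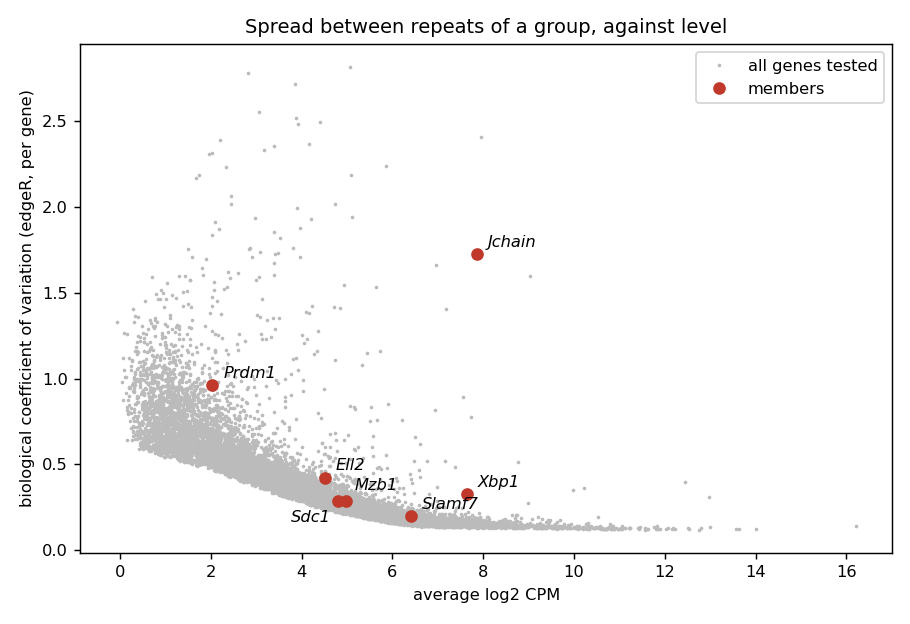
Biological coefficient of variation of each gene (vertical axis, edgeR) against its average log2 CPM (horizontal axis); grey points are all 12744 genes tested and red points the 7 tested members. Jchain (1.72) lies above most genes of its level, and Prdm1 (0.961) is the next highest member. Xbp1 (0.327) also lies above genes near its level, for example Dock2 (0.159).

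The order of levels was taken from the deposited TPM values, which are per length of transcript. Over the 8 libraries the mean TPM was 158 ± 57.2 for Xbp1, 92.0 ± 215 for Jchain, 68.0 ± 23.1 for Mzb1, 16.9 ± 3.44 for Slamf7, 4.15 ± 1.08 for Sdc1, 1.66 ± 0.747 for Ell2, 0.542 ± 1.02 for Tnfrsf17 and 0.317 ± 0.353 for Prdm1 (SD, n = 8). Jchain took its place through HET replicate 1, at 622 TPM, and its median was 14.2 TPM. It was above Mzb1 in 1 of 8 libraries, so these neighbours did not differ beyond their spread, and neither did Tnfrsf17 and Prdm1. Every other neighbour in this order was above the next in 7 or 8 of 8 libraries, by a mean log2 difference larger than its SD.

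The 8 genes together made up 2140 CPM in HET replicate 1 and 299, 340 and 580 CPM in HET replicates 2 to 4, against 349, 268, 322 and 517 CPM in WT replicates 1 to 4. Jchain alone was 73.6% of that sum in HET replicate 1, but no more than 18.3% in any other library. Without Jchain the sums were 564, 274, 329 and 483 CPM in HET and 307, 267, 322 and 422 CPM in WT. In both groups replicate 4 and, in HET, replicate 1 were then the high libraries.

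HET replicate 1 was the highest of the 8 libraries for 4 of the 7 tested genes (Jchain, Mzb1, Ell2 and Slamf7), or 57.1%, and for 11.6% of all genes tested. The libraries with most Jchain were HET replicates 1 and 4 and WT replicates 4 and 1. The same 4 libraries were the highest 4 for Ell2 as well, but for no other of the 7, and for 1.52% of all genes tested; this set was chosen after the values were seen. Of all pairs of members, Mzb1 and Slamf7 had the smallest root-mean-square difference between their centred log2 CPM over the 8 libraries (0.30). Xbp1 and Mzb1 (0.34) and Xbp1 and Ell2 (0.43) came next. The root-mean-square of Slamf7 itself was 0.28 and that of Mzb1 0.42, so Slamf7 was no closer to Mzb1 than to a flat profile. By this measure genes of low spread differ little from each other whatever their pattern. Jchain was at least 2.89 from every other gene of the set.

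Other genes were ranked by the same measure, among about 10044 candidates with a mean of at least 5 CPM. Closest to Xbp1 were Arid3a (0.17), a DNA-binding factor of B cells, Creld2 (0.20), a chaperone of the endoplasmic reticulum, and 1810014B01Rik (0.23). Closest to Mzb1 were Sel1l (0.16), part of the machinery that removes misfolded proteins from the endoplasmic reticulum, Ift27 (0.19) and Ighm (0.19), the IgM heavy chain. Ighm was at 15361 CPM in HET replicate 1 and between 6145 and 7657 CPM in the other 7 libraries.

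Closest to Ell2 were Ppfibp2, Coro2a and Kbtbd11 (0.29 to 0.30), closest to Slamf7 were Zbp1, Tsen15 and Gm26049 (0.12 each), and closest to Sdc1 were Gm12352, BC029722 and Cited2 (0.14 to 0.15). The differences were larger for Prdm1 and Jchain, whose own levels varied more. The nearest genes to Prdm1 were Ccr9 (0.78), Slc44a1 (0.92) and Dag1 (0.93), beside a root-mean-square of 1.59 for Prdm1 itself. The nearest to Jchain were the light chain variable genes Igkv4-55 (1.97) and Igkv6-20 (2.0) and the receptor gene P2ry14 (2.13), beside 3.40 for Jchain itself. Igkv4-55, like Jchain, was at or near 0 in WT replicates 2 and 3. Reads of light chain variable genes may be split among near-identical copies.

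The wider ASC programme was described with 4 lists. Of 10 ASC regulators, 5 were higher and 5 lower in HET, none with an unadjusted p under 0.05, with a median log2 fold change of 0.07; without HET replicate 1, 2 of the 10 were higher. Irf4, which works with Prdm1 in plasma cell differentiation, was at 83.8 ± 25 CPM in HET and 74.9 ± 22.9 CPM in WT (SD, n = 4 each, log2 fold change 0.16, edgeR adjusted p = 0.918, and -0.06 without HET replicate 1), and HET replicate 1 (120 CPM) and WT replicate 4 (108 CPM) were highest, as for Prdm1. Pou2af1, a coactivator of octamer-binding factors, had the highest fold change of the abundant regulators (0.25, adjusted p = 0.793, and 0.16 without HET replicate 1), while Zbtb20 (-0.14, adjusted p = 0.908, and -0.04 without it) and Mef2c (-0.17, adjusted p = 0.706) had the lowest by edgeR. Bhlha15, which encodes the secretory cell factor MIST1 and was singled out after its values were seen, was at 17.0, 2.07, 0.300 and 5.76 CPM in HET replicates 1 to 4 and at 0.285, 0, 0 and 5.95 CPM in WT replicates 1 to 4. Its high libraries, HET replicates 1 and 4 and WT replicate 4, were 3 of the 4 that were high in Jchain.

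Of 29 XBP1-linked secretory genes, 23 were higher and 6 lower in HET (median log2 fold change 0.16), but none had an unadjusted p under 0.05. Without HET replicate 1, 16 of the 29 were higher and the median was 0.03. HET replicate 1 was the highest library for 17 of the 29 (58.6%) and HET replicate 4 for 6 (20.7%), beside 11.6% and 13.5% of all genes. Fkbp11, a prolyl isomerase of the endoplasmic reticulum, was at 32.7 CPM in HET replicate 1 and between 5.23 and 10.5 CPM in the other 7 libraries (log2 fold change 0.76, edgeR adjusted p = 0.798, and -0.11 without HET replicate 1). Creld2 (0.48, adjusted p = 0.839, and 0.32 without it) came next, and Txndc11 (-0.26, adjusted p = 0.810) and Dnajb11 (-0.18, adjusted p = 0.851) were at the other end. Hsp90b1, Edem1, Derl3, Sel1l and Hyou1, 5 of the 29, had the same 4 highest libraries as Jchain and Ell2.

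Of 12 ASC surface genes, 3 were higher and 9 lower in HET (median log2 fold change -0.14), none under an unadjusted p of 0.05 by edgeR. Without HET replicate 1, 4 of the 12 were higher and the median was -0.16. Not all 12 are specific to ASCs: Tnfrsf13c, counted among the lower genes, was nearly level. It was at 508 ± 66.2 CPM in HET and 510 ± 27.8 CPM in WT (SD, n = 4 each, log2 fold change -0.0067). Ly6c2, a surface protein found on plasma cells among other cells, was at 339, 162, 153 and 242 CPM in HET replicates 1 to 4 and at 218, 64.6, 58.4 and 90.2 CPM in WT replicates 1 to 4. Only WT replicate 1 reached the HET range (log2 fold change 1.05, standard error 0.51, edgeR adjusted p = 0.732; 0.79 without HET replicate 1). Cd44 (0.20, adjusted p = 0.820, and 0.09 without HET replicate 1), Cxcr4 (-0.24, adjusted p = 0.816) and Cd9 (-0.30, adjusted p = 0.881, and -0.61 without it) had smaller fold changes by edgeR.

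The list of 15 B cell identity genes holds genes of the mature B cell, many of which are shut down as ASCs form. Of the 15, 10 were lower and 5 higher in HET (median log2 fold change -0.21). There were 10 with an unadjusted p under 0.05 (8 lower and 2 higher), beside 7.22% of all genes, and 6 had it without HET replicate 1. The groups did not overlap for 4 of the 15, beside 4.61% of all genes. None passed edgeR's adjusted threshold, while DESeq2 called 2, Ciita and Cd22, both lower in HET.

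Ciita, the activator of MHC class II genes, was at 324, 321, 342 and 290 CPM in HET replicates 1 to 4 and at 454, 390, 487 and 397 CPM in WT replicates 1 to 4 (log2 fold change -0.44, adjusted p = 0.233 by edgeR and 0.0121 by DESeq2). Bcl6 was at 45.6 ± 10.2 CPM in HET and 64.2 ± 15.4 CPM in WT (SD, n = 4 each, log2 fold change -0.50, edgeR adjusted p = 0.629), and the groups overlapped. Myc was at 241 ± 32.0 CPM in HET and 191 ± 53.7 CPM in WT (SD, n = 4 each, log2 fold change 0.33, edgeR adjusted p = 0.740). These fold changes did not rest on HET replicate 1, without which they were -0.44, -0.39 and 0.38.

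**Figure D4:**
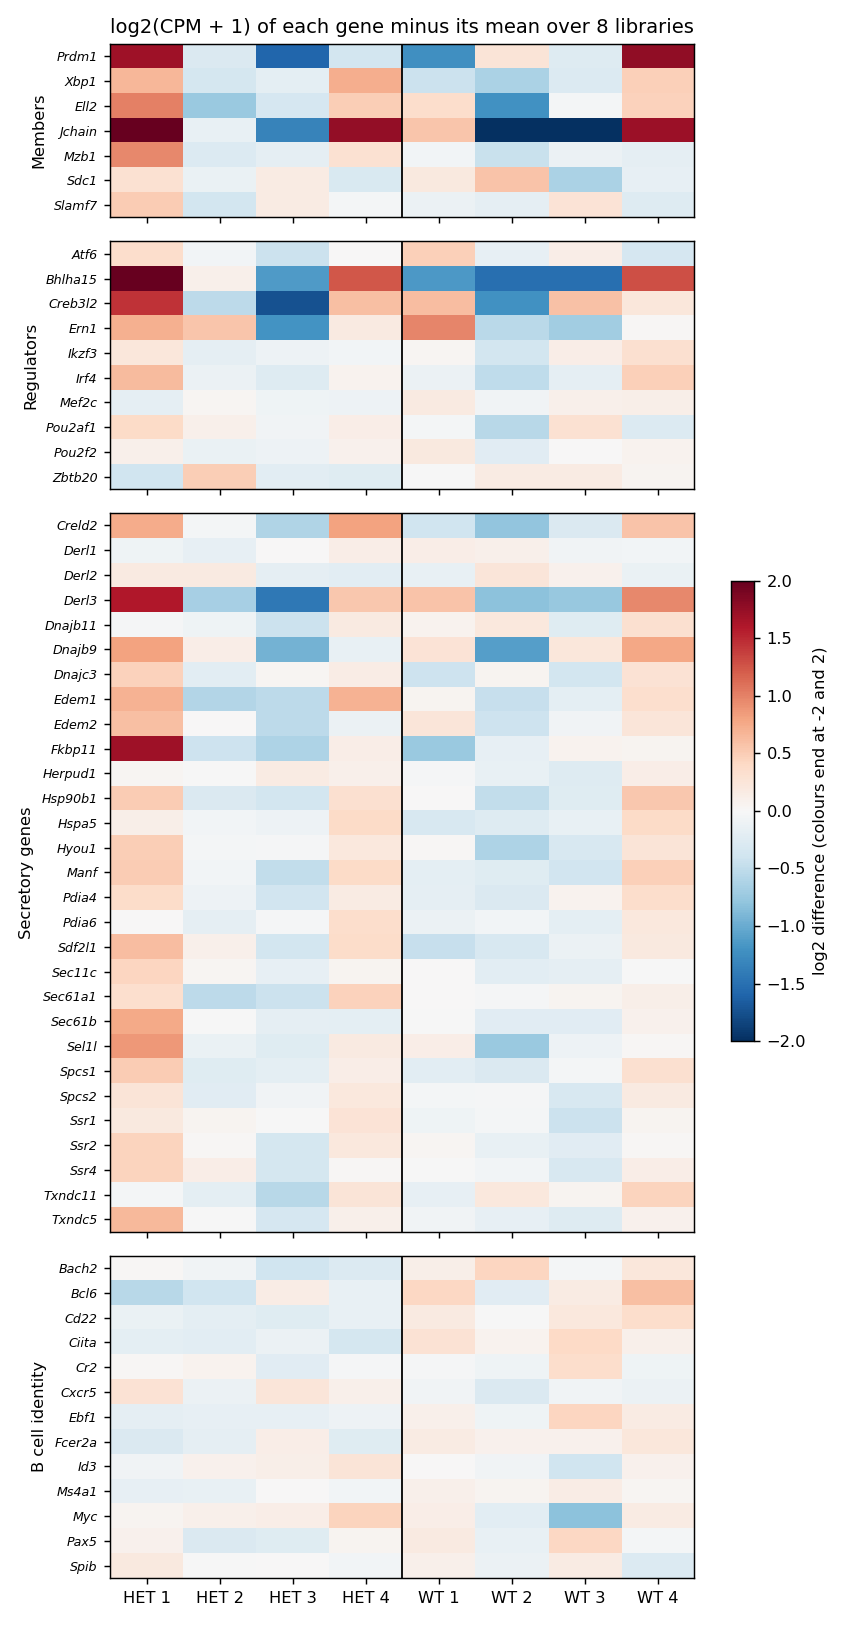
Log2(CPM + 1) of each gene minus its mean over the 8 libraries (colour, ending at -2 and 2) for the 7 tested members, 10 ASC regulators, 29 secretory genes and 13 of the 15 B cell identity genes (rows) in the 4 HET and 4 WT libraries (columns). Red in the HET 1 column recurs in the first 3 blocks, while Ciita and Cd22 in the last block are lower in all 4 HET libraries than in the WT libraries.

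Markers of other cell types and immunoglobulin RNA were summed in each library, since they could move with the genes described. The 290 immunoglobulin genes added up to 44982 CPM in HET replicate 1, 20624, 21354 and 22599 CPM in HET replicates 2 to 4, and 24805, 22047, 22974 and 25722 CPM in WT replicates 1 to 4. The library with the most Jchain, Mzb1, Ell2 and Slamf7 was therefore also the one with the most immunoglobulin RNA, and the part of that library's cell makeup in these values was not tested. The 8 B cell markers added up to 21092 to 22399 CPM in HET and 24196 to 26739 CPM in WT. All 8 had a negative fold change, beside 6388 of all 12744 genes tested. The groups did not overlap for 4 of the 8, beside 4.61% of all genes, and none was called by edgeR, beside 0.0235%. Cd74 alone was at 10785 to 11680 CPM in HET and at 12618 to 15157 CPM in WT, the highest of them in every library. The sum therefore follows Cd74 more than any other B cell marker.

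The 12 T cell markers added up to 460 to 708 CPM in HET and 410 to 652 CPM in WT. Of the 11 tested, 9 had a positive log2 fold change and 2, Cd2 (-0.14) and Cd5 (-0.60), a negative one (none called by edgeR). Cd2 (168 to 246 CPM) and Lck (92.4 to 172 CPM) were the highest of the 12 in every library. No other T cell marker was above 75.9 CPM, so the sum mostly follows Cd2 and Lck and says little about the others. Cd3d, Cd3e and Cd3g were at 2.65 to 46.4, 6.56 to 25.9 and 4.59 to 43.7 CPM, with log2 fold changes of 0.92, 0.40 and 0.45. Whether the Cd2 RNA came from T cells was not tested. Of these markers Cd4 was at 0 in 5 libraries and at no more than 7 counts in the others, while Cd8a was at 7.19 to 57.1 CPM and Trbc2 at 10.8 to 75.9 CPM. The part of T cell RNA in the values above was not tested. The 8 plasmacytoid dendritic cell markers, from cells that can express several ASC genes, ranged from 1031 to 1271 CPM in HET and from 946 to 1272 CPM in WT, most of it from Irf8 and Tcf4, which B cells also express. Of these markers Siglech, a defining gene of these cells, was at 102, 91.8, 13.0 and 23.7 CPM in HET replicates 1 to 4 and at 0, 0, 5.93 and 39.0 CPM in WT replicates 1 to 4, and Klk1 was at 0 in 5 libraries. Ccr9, the nearest gene to Prdm1, is a marker on this list; Prdm1 and Siglech were both high in HET replicate 1 and WT replicate 4, but Siglech was also high in HET replicate 2, where Prdm1 was at 1.81 CPM. The part of these cells in the Prdm1 values was not tested.

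The 8 NK cell markers added up to 59.6 to 209 CPM in HET and 40.5 to 110 CPM in WT, with HET replicates 1 to 3 above every WT library. Of the 8, 7 had a positive fold change and 1 a negative one. The groups did not overlap for 1 (Eomes, log2 fold change 2.17), beside 4.61% of all genes, and none was called by edgeR, beside 0.0235%. Most NK and T cell markers thus had positive fold changes where all 8 B cell markers and most B cell identity genes had negative ones, and the part of these cells in those values was not tested. The 8 macrophage and monocyte markers added up to 17.7 to 61.0 CPM in HET and 26.5 to 433 CPM in WT, where Lyz2 was at 399 CPM in WT replicate 2 and Fcgr1, C1qa and C1qb were at or near 0 throughout. In WT replicate 2 Jchain, Xbp1, Mzb1 and Ell2 were low, and Sdc1 was at its highest. Slamf7 is also expressed by NK cells and some myeloid cells, and its levels, 64.4 to 119 CPM, were not ordered as those of either list; the part of these cells was not tested.

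**Figure D5:**
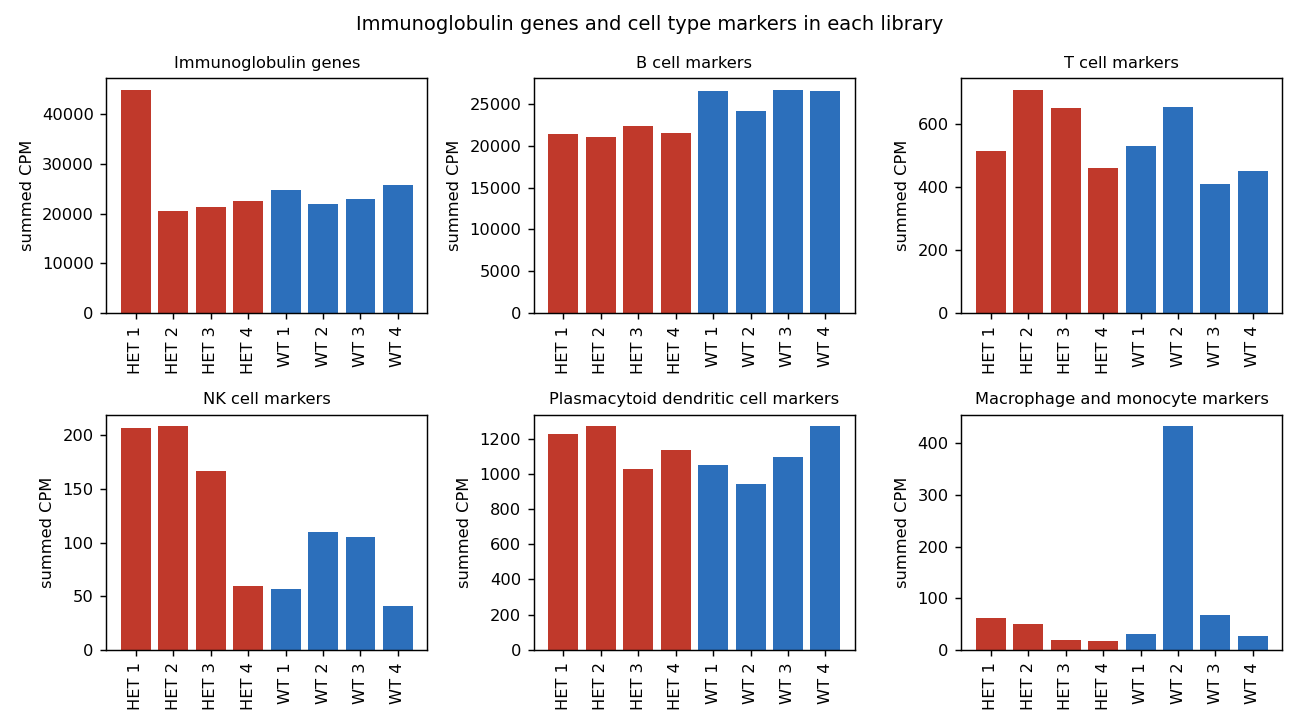
Summed CPM (vertical axes, from 0) of 290 immunoglobulin genes and of the B cell, T cell, NK cell, plasmacytoid dendritic cell and macrophage and monocyte markers in each HET (red) and WT (blue) library. HET replicate 1 stands out for immunoglobulin RNA (44982 CPM) and WT replicate 2 for macrophage and monocyte markers (433 CPM).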

How the data were processed

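The authors prepared SMART-Seq2 libraries from polyA RNA of about 200 cells, aligned reads to GRCm38 (mm10) with Hisat2 2.2.1 and counted them per gene with HTSeq. The annotation release, strand setting and handling of multiply aligned reads are not given in the sources used here. The deposited counts are whole reads for 24259 genes, and the deposited TPM values, scaled by gene length and library total, are for the same libraries. All columns were matched to libraries by name.

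Counts were filtered with filterByExpr (12744 genes kept), scaled by TMM and compared between HET and WT with the quasi-likelihood F-test of edgeR 4.0.16 (robust, group only) in R 4.3.3, with Benjamini-Hochberg adjustment over all genes tested and a threshold of 0.05. The standard error was taken as the log2 fold change over the root of F. The scripts were tested on simulated data. Likeness used log2 CPM with a prior count of 2, centred per gene. DESeq2 1.42.0, the study's tool, and limma 3.58.1 served as alternatives. SMART-Seq2 has no molecular identifiers, so counting intervals and floors (3 counts) cover counting error only. Libraries with the same number were not paired: the correlation of their deviations from the group means was between -0.05 and 0.01. Positions are from GENCODE M21 on GRCm38, and promoter windows from RefSeq.

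The 8 genes, the other lists and the tests were chosen with earlier results of these data known. All 8 genes are named, together with the 3 genes of mean CPM at least 5 most alike to each tested one, and, per list, the 2 highest and 2 lowest log2 fold changes among genes of mean CPM at least 10, of which 1 is not reported here. Bhlha15, Cd22, Tnfrsf13c, Dock2, Celf2 and the genes that share their 4 highest libraries with Jchain are named outside or beyond that rule, after their values were seen. The number of genes called, the members called and the member fold changes were computed again under a set of alternatives. These were DESeq2, no filter, RLE size factors, a replicate block, voom with sample weights, immunoglobulin genes left out, and each library left out in turn. Limma-trend was also used on log2(TPM + 1), log2(TPM + 0.1) and genes of mean TPM at least 1. Mean levels of members were computed again with single libraries left out, and their ranks with TPM. List counts were computed again only without HET replicate 1, and likeness, spread and marker sums were computed once. List counts without HET replicate 1 were added after seeing the data.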

Additional observations from a re-analysis of the deposited data

Results flagged for a closer look

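In each group of 4 libraries, the highest or lowest value was compared with the others by Dixon's criterion (the gap to the nearest value as a share of the range), for the members, the immunoglobulin genes and the marker sums. Of 28 such groups, 7 had a library that stood apart. The criterion's rate of about 1 in 20 by chance holds for normally distributed values. CPM were used here without a log scale, and those of Jchain and Prdm1 were strongly skewed. The 7 can therefore not be set against that rate. For Tnfrsf17, in both groups, the other 3 values were all 0, so that any count stands apart and that rate does not apply. Of the 7, 4 were in HET replicate 1: Prdm1 at 10.2 CPM, Jchain at 1576 CPM, Tnfrsf17 at 4.10 CPM and the immunoglobulin genes at 44982 CPM. In WT replicate 1, Tnfrsf17 stood apart at 5.23 CPM, the other 3 WT libraries being at 0. In WT replicate 2, the B cell markers stood apart on the low side at 24196 CPM and the macrophage and monocyte markers on the high side at 433 CPM. WT replicate 4 did not meet the criterion for Prdm1, although it held the most of any library (10.9 CPM).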

How the results depend on the processing

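No member was called under any alternative that gave it an adjusted p, and 106 of 118 fold changes of the 7 tested members kept their sign (DESeq2 gave no p for Jchain). The 12 others changed sign: that of Sdc1, -0.03 with all libraries, was 0.015 by voom with sample weights, and single libraries left out gave ranges that crossed 0 for Prdm1 (-1.74 to 0.93), Sdc1 (-0.20 to 0.20), Ell2 (-0.13 to 0.49) and Slamf7 (-0.0028 to 0.30). The ranges were 0.36 to 4.87 for Jchain, 0.26 to 0.74 for Xbp1 and 0.18 to 0.66 for Mzb1. Over all genes, 3 were called with all libraries and edgeR, 95 by DESeq2, 38 with no filter, 6 by voom with sample weights, 0 by limma-trend on log2(TPM + 1) with and without the minimum mean TPM, 1 on log2(TPM + 0.1), and 1 to 6 with a library left out (6 without WT replicate 1). The cause was not tested. Without HET replicate 1, an alternative added after seeing the data, 2 in place of 5 of the regulators were higher in HET, and 6 in place of 10 B cell identity genes had an unadjusted p under 0.05.

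With the replicate number as a block, no gene was called (0 in place of 3), the fold change of Sdc1 was 0.015 and that of Prdm1 -0.95 (in place of -0.21), and Xbp1 had an unadjusted p of 0.0261 (edgeR adjusted p = 0.675). The correlation of same-numbered libraries was -0.051, 0.013, 0.003 and -0.026, so the numbers do not pair the libraries. Prdm1 and Tnfrsf17 had at most 127 and 55 counts in a library, and libraries of like depth differed widely in both. The level ranks of 6 members changed between CPM and TPM.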
